A study of Caenorhabditis elegans with 12 samples.

Results

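In each of the 4 genotype and heme groups of this study, 1 of the 3 arrays stood apart from the other two, and it carried the number 3 in its title. The subject here is those 4 arrays of 12, each set against the 8 arrays numbered 1 and 2 of the same groups. Expression was measured on Affymetrix GeneChips in Caenorhabditis elegans, from animals labelled as mid to late L4, the last larval stage. The groups were hrg-2 mutant and wildtype animals given 4 µM heme, and hrg-2 mutant and wildtype animals given 20 µM heme, with 3 arrays in each. The labels name the mutated gene but give no allele. All 12 arrays carry the same stage label, and no label says what the numbers mark, so array number cannot be told apart from culture, day, exact age or array handling. Nothing in the labels tells whether a group's arrays came from separate cultures. The p-values below therefore measure the spread between these 12 samples and no more, and that spread may be technical.

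C. elegans is a hermaphrodite that makes sperm in the late larval germ line and switches to oocytes around the last molt. At that molt the hypodermis (the skin) lays down an adult cuticle with collagens of its own, under the control of heterochronic genes, which time the larval stages. The adult intestine then makes yolk proteins (vitellogenins) that are taken up by oocytes. The worm cannot make heme and imports it through the intestine. HRG-2 is a hypodermal membrane protein with a role in heme utilization.

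Values are log2 expression, 1 per probe set, and a shift is the number 3 array minus the mean of numbers 1 and 2 of its group. Across 22548 probe sets the number 3 arrays correlated with one another at 0.962 to 0.982, over both genotypes and heme levels, and with numbers 1 and 2 of their own group at 0.858 to 0.948. Numbers 1 and 2 of a group correlated at 0.985 to 0.99. The shift differed from 0 at 6789 probe sets (limma, adjusted p under 0.05), 2581 of them positive and 4208 negative, and 3330 of these were at least 2-fold. Between numbers 2 and 1 of the same groups limma called 0 of 22548 probe sets (0.0%), with 694 at an unadjusted p under 0.05. That fit gave all groups 1 common shift of number 3, so differences in this shift between groups widen its residual spread. The 0 calls therefore do not show that numbers 1 and 2 are alike. Counted by gene, each by its brightest probe set, 2109 of 17138 rose (12.3%) and 3318 fell (19.4%), with a median shift over all genes of -0.06. Without regard to the test, the number 3 array lay above both others in all 4 groups for 1864 genes (10.9%) and below both for 2842 (16.6%).

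The annotation used pairs no probe set with hrg-2 itself, so the genotype labels were checked on another gene. F47D12.6, chosen after its values were seen, read 2.88 and 2.48 on the mutant arrays numbered 3, against 8.36 and 8.63 on the wildtype arrays numbered 3. On numbers 1 and 2 it lay between 2.54 and 2.98 in the mutant and between 8.95 and 9.32 in wildtype. The number 3 arrays thus fell on the same side as their label at this gene. Because it was chosen with these values known, that is no independent check of the labels. Some of the array controls differed by number as well. The difference between 3′ and 5′ probe sets, which grows with RNA breakdown or short cDNA, was highest on number 3 in all 4 groups for ubiquitin and catalase, and in 3 of 4 groups for actin and GAPDH. For actin this difference was 2.30 on number 3, against 2.60 and 1.68 on numbers 1 and 2, in the mutant at 4 µM. The matching wildtype group had 3.18 on number 3, against 1.34 and 0.92. The 24 bacterial poly-A control probe sets, which detect RNA added to the sample, had a median of 10.73 on the mutant array numbered 3 at 20 µM, against 7.73 and 7.70 on numbers 1 and 2. For wildtype at the same heme level their shift was 1.20. At 4 µM it was 1.24 for the mutant and 0.21 for wildtype. The 18 hybridisation control probe sets followed no single direction, with shifts of -0.65 for the mutant and 0.37 for wildtype at 4 µM, then 0.80 for the mutant and 0.13 for wildtype at 20 µM. The part these controls play in the results below was not tested.

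The adult cuticle collagen col-19, the standard mark of the adult hypodermis, was higher on every number 3 array. In the mutant it read 12.78 at 4 µM and 12.04 at 20 µM on number 3, against 7.61 and 7.15 at 4 µM and 7.00 and 6.76 at 20 µM on numbers 1 and 2. In wildtype it read 10.86 and 11.01 on number 3, against 8.61, 7.95, 8.86 and 8.82. The 4 arrays numbered 3 averaged 11.67 ± 0.91 and the 8 others 7.85 ± 0.84 (SD), without overlap. The shift was 3.83 ± 0.47 (SE), or 14.2-fold, with a limma adjusted p of 0.000184. Of the other adult cuticle genes measured, bli-1, a collagen of the struts of the adult cuticle, shifted by 1.90 ± 0.59 (adjusted p 0.0305). Its mutant arrays at 20 µM did not follow, with 11.81 on number 3 against 11.85 and 11.45. Its call ended when any of 5 arrays was left out, with adjusted p up to 0.112. These were the mutant arrays numbered 3 and 1 at 4 µM, the wildtype arrays numbered 3 and 2 at 4 µM and the wildtype array numbered 3 at 20 µM. bli-2, its partner in the struts, shifted by 1.51 and did not pass (adjusted p 0.0582).

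**Figure D1:**
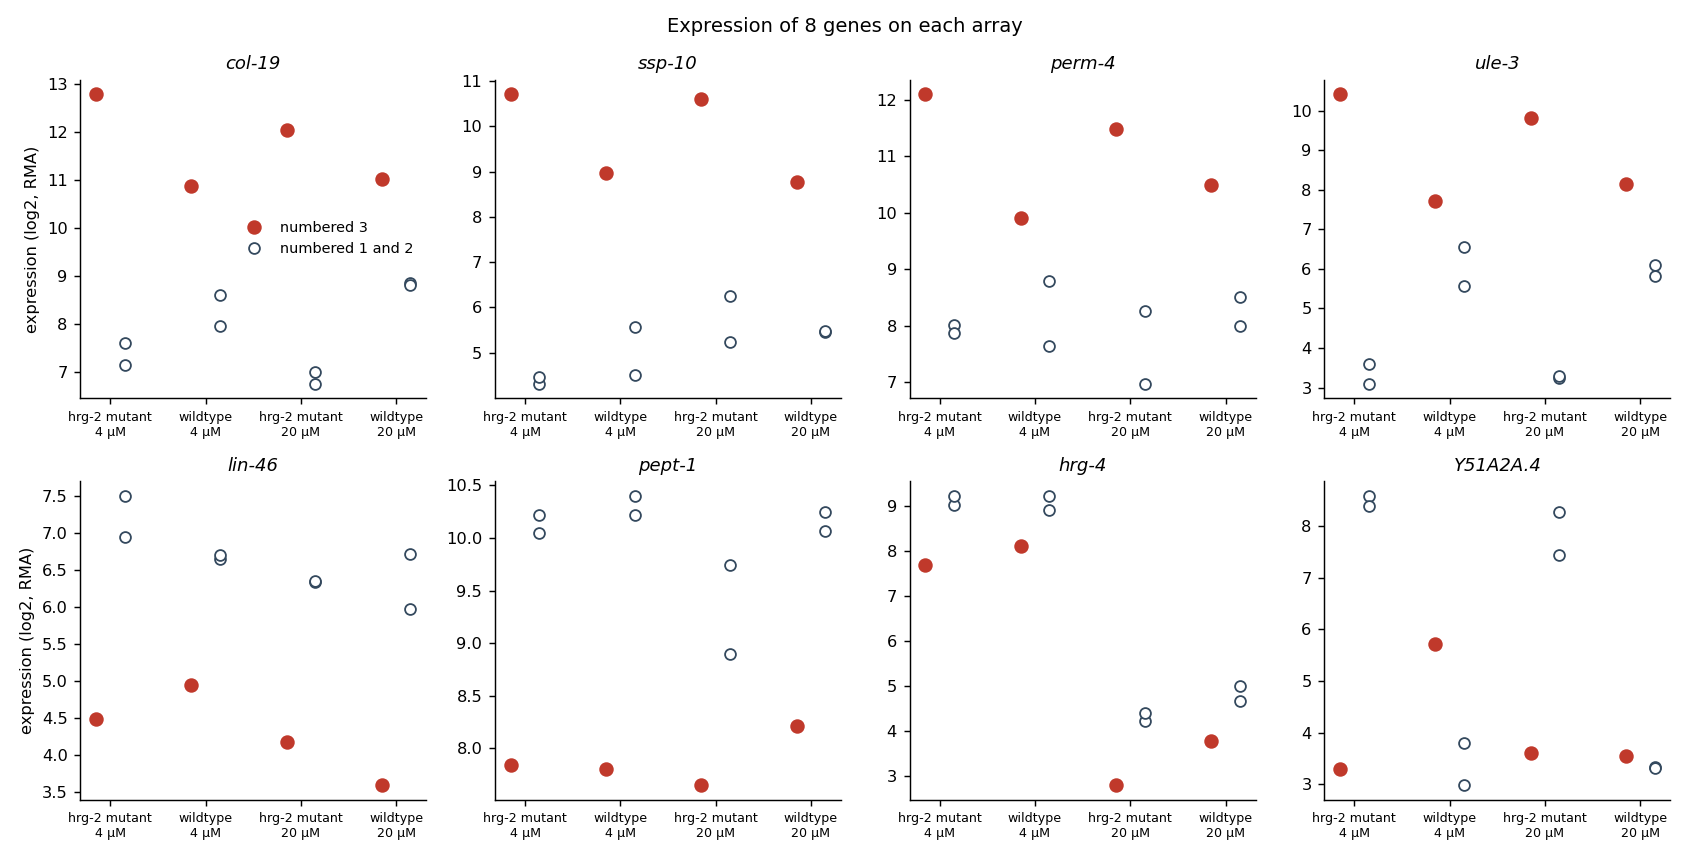
Log2 expression (vertical axes, each panel on its own scale) of 8 genes in the 4 genotype and heme groups. Filled points are arrays numbered 3 and open points arrays numbered 1 and 2; col-19 lies at 10.86 or more on each filled point and at 8.86 or less on each open one.

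The wider collagen family moved unevenly. Of 128 col genes 43 rose and 6 fell, against 12.3% and 19.4% of all genes, with a median shift of 0.49. col-60 averaged 12.05 ± 0.34 on number 3 and 7.51 ± 1.09 on the 8 others, a shift of 4.53 ± 0.34 (adjusted p 2.44e-05). col-120 rose by 4.26 and col-88 by 4.12, while col-41 fell by 3.42 (adjusted p 0.000358). col-41 read 7.72, 9.08, 9.01 and 8.31 on number 3, and between 10.19 and 12.92 on the others, so that the groups did not overlap. Furrow collagens, laid down early in each molt cycle, gave 0 calls of 5 over all groups, with a median of -0.67. At 4 µM their median was -1.85 in the mutant and -0.08 in wildtype, and at 20 µM it was -0.91 in the mutant and 0.24 in wildtype. None of 10 body-shape collagens passed either (median 0.13).

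Of 12 heterochronic genes 2 fell and 0 rose, a share of falls (16.7%) near the 19.4% of all genes. The list median was -0.29, or -0.15 with the mean of all probe sets of a gene. lin-46, which acts in larval timing, read 4.49, 4.94, 4.17 and 3.59 on number 3, against values between 5.97 and 7.50 on the 8 others. It fell by 2.35 on the log2 scale (SE 0.21, adjusted p 4.17e-05), with all 4 number 3 arrays below all others, while its other probe set shifted by -0.44. daf-12, a nuclear hormone receptor of developmental timing, shifted by -0.60 ± 0.15 (adjusted p 0.0116), but its 2 other probe sets shifted by 0.14 and 0.07. Its call ended without the wildtype number 3 array at 4 µM (adjusted p 0.0506). lin-29, the transcription factor of the larval to adult switch, shifted by -0.73, lin-41 by -0.51, hbl-1 by -0.39, lin-14 by 0.71, lin-28 by 0.29 and lin-42 by 0.08, none of them called. The remaining 4 (lin-66, mab-10, dre-1 and blmp-1) lay between -0.43 and 0.21 and did not pass.

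Among 21 molting genes 4 fell, a share near the 19.4% of all genes, and 0 rose. Their median was -0.27, or -0.46 when a gene was taken as the mean of all its probe sets. The nuclear receptor nhr-23 shifted by -1.02 (adjusted p 0.0131), and its other probe set by -0.17. The nhr-23 call ended without number 3 of wildtype at 4 µM or of the mutant at 20 µM (adjusted p up to 0.0542). The kinase nekl-3 shifted by -1.05 (0.0101) and the astacin protease nas-36 by -0.61 (0.0315). The nas-36 call ended when the number 3 array of either genotype at 4 µM, the mutant number 2 array at 20 µM or the wildtype number 2 array at 4 µM was left out (adjusted p up to 0.122). Hedgehog-related secreted proteins gave 7 falls and 0 rises of 54, a share of falls below that over all genes, with a median of -0.06. The falls included grl-6 (-3.34), wrt-3 (-2.11) and grd-10 (-1.51). Patched-related membrane proteins gave 5 falls and 1 rise of 26, again near the background (19.2% falls). Regulators of the hypodermis gave 4 falls and 1 rise of 9. The rise was elt-1, a GATA factor of the hypodermis, at 1.91 ± 0.22 (adjusted p 0.000115). The falls included egl-18 (-1.01, other probe set -0.37) and elt-3 (-0.69, other probe set -1.57). Vulval genes gave 5 falls and 0 rises of 14, among them the Notch receptor lin-12 (-0.95) and the LIM homeobox gene lin-11 (-1.0). The other lin-11 probe set shifted by -0.45.

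Sperm genes gave the highest list medians. All 23 major sperm protein (MSP) genes rose, with shifts between 2.28 and 3.34 and a median of 2.65, and 39 of 45 other spermatogenesis genes rose with 0 falls (median 2.54). Over all genes 12.3% rose. MSP genes are near-identical copies, so these probe sets share signal and their count does not stand for 23 separate measurements. The median level of the MSP list was 12.30 on number 3, against 7.82 and 7.53 on numbers 1 and 2, in the mutant at 4 µM. It was 11.77 on number 3, against 10.09 and 9.14, in wildtype at 4 µM. At 20 µM it was 12.14 against 10.73 and 9.59 in the mutant, and 11.64 against 9.63 and 9.87 in wildtype. The number 3 arrays thus lay within 0.66 of each other, while the remaining arrays were spread more widely and lowest in the mutant at 4 µM.

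ssp-10, of a family of small sperm-specific proteins, read 10.71 and 10.61 on the mutant arrays numbered 3, against 4.32, 4.47, 6.26 and 5.24 on the mutant arrays numbered 1 and 2. In wildtype it read 8.96 and 8.77 on number 3, against 5.58, 4.52, 5.46 and 5.47. All number 3 arrays exceeded all others, and the shift was 4.60 ± 0.41 (adjusted p 4.46e-05). spe-54, another spermatogenesis gene, rose by 2.53 ± 0.16 (1.57e-05). Genes for sperm or oocyte fate gave 1 fall (fog-1, -0.55) and 0 rises of 13. Over all genes 19.4% fell and 12.3% rose, but the list is small and no test was made of these shares. The fog-1 call ended without the wildtype number 3 array at 20 µM or the mutant number 3 array at 4 µM (adjusted p up to 0.0762). In bulk RNA, more cells of a type and more RNA per cell cannot be told apart.

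Oocyte genes were higher as well, by less. Over all groups, of 13 eggshell and fertilization genes 10 rose and 0 fell (median 1.39). Of 12 maternal regulators loaded into oocytes 9 rose and 0 fell (median 1.26). The shares over all genes were 12.3% rising and 19.4% falling. Tested by genotype, 11 of the 13 eggshell genes rose in the mutant and 2 in wildtype, with median shifts of 1.92 and 1.05. For the 12 maternal genes, 11 rose in the mutant and 5 in wildtype, with medians of 2.02 and 0.87. The shares of all genes rising were 10.2% in the mutant and 9.52% in wildtype. The difference of shifts between genotypes passed for 1 gene of each list. perm-4, needed for the permeability barrier of the eggshell, read 12.10 and 11.49 on the mutant arrays numbered 3, against 8.02, 7.88, 8.27 and 6.98. In wildtype it read 9.91 and 10.49, against 8.79, 7.65, 8.52 and 7.99. All number 3 arrays lay above all others, with a shift of 2.99 ± 0.41 (adjusted p 0.000352), and its 3 other probe sets gave 3.65 to 3.92. cpg-2, a proteoglycan of the eggshell, rose by 2.04, the yolk receptor rme-2 by 1.73, and the embryonic zinc-finger regulators pos-1 by 2.04, mex-1 by 1.88 and mex-5 by 1.37. The median level of the maternal list on number 3 at 4 µM was 9.46 in the mutant and 7.57 in wildtype, and at 20 µM it was 8.31 in the mutant and 7.50 in wildtype. On numbers 1 and 2 it lay between 6.42 and 6.87 in every group.

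The list of the mitotic and meiotic germ line had a smaller median. Of its 27 genes 6 rose and 0 fell (median 0.33), against 12.3% of all genes rising. The P granule helicase glh-2 rose by 0.78, the translational regulator gld-1 by 0.81 and xnd-1 by 0.90. The other gld-1 probe set shifted by 0.20. Of 18 DNA replication genes 4 rose and 0 fell (median 0.30), with psf-1 of the GINS complex at 0.98. Genes first transcribed in early embryos gave 3 rises and 3 falls of 39 (median 0.05), both below the shares over all genes. Somatic gonad genes gave 1 rise and 1 fall of 8. The rise was the gap junction gene inx-8 (1.59 ± 0.30, adjusted p 0.00238) and the fall plc-1 (-0.84). The other plc-1 probe sets shifted by -0.90, -0.28 and -0.04.

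**Figure D2:**
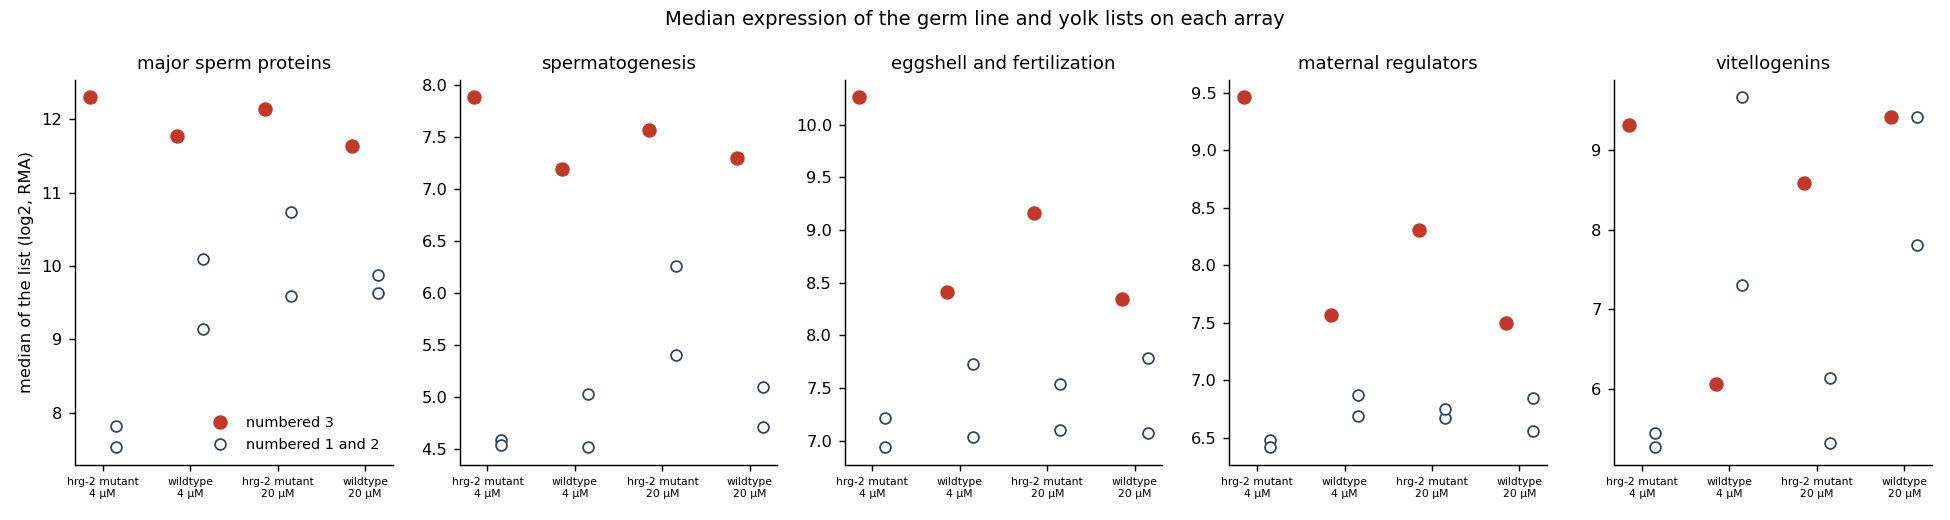
Median log2 expression (vertical axes, each panel on its own scale) of 5 gene lists on each array, in the 4 genotype and heme groups. Filled points are arrays numbered 3 and open points numbers 1 and 2; the sperm, eggshell and maternal medians on number 3 exceed those of their own group's other arrays in all 4 groups, and the vitellogenin median does so in the mutant groups.

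Neuronal genes gave 13 falls and 0 rises of 25 (median -0.40), against 19.4% of all genes falling. ric-4, the SNAP-25 homolog of synaptic vesicle release, read 7.03, 7.60, 6.44 and 6.92 on number 3 and between 8.22 and 9.15 on the others, without overlap. It fell by 1.55 on the log2 scale (SE 0.18, adjusted p 0.000129). Choline acetyltransferase (cha-1) shifted by -1.22 and ida-1, of dense-core vesicles, by -1.20, while the other ida-1 probe set shifted by -0.46. FMRFamide-like neuropeptides gave 8 falls and 0 rises of 25. Muscle genes gave 5 falls and 0 rises of 23 (median -0.24), a share near that over all genes, with the pharyngeal troponin tnc-2 at -1.36 and pharyngeal myosin myo-2 at -0.94. Chemoreceptors gave 31 falls (2.71%) and 11 rises (0.96%) of 1146, both far below the 19.4% and 12.3% over all genes. Their median level lay between 2.50 and 2.82 on every array, so many may lie at background.

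Intestinal genes gave 9 falls and 1 rise of 20 (median -0.28), against 19.4% of all genes falling and 12.3% rising. The peptide transporter pept-1 read 7.84, 7.80, 7.65 and 8.21 on number 3, against values between 8.90 and 10.40 on the others. All 4 number 3 arrays lay below the remaining 8, and the shift was -2.11 ± 0.19 (adjusted p 4.17e-05). The intermediate filament ifp-1 shifted by -1.71 and the intestinal phosphatase pho-1 by -1.48. Glutathione S-transferases, detoxifying enzymes, gave 18 falls and 0 rises of 40 (median -0.62), with gst-24 at -1.48. Their share of falls was also above that over all genes. Transthyretin-related secreted proteins split, with 17 falls (42.5%) and 5 rises (12.5%) of 40, a share of rises near that over all genes. ttr-14 rose by 5.01 ± 0.53 and ttr-22 fell by 2.28.

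Ribosomal and proteasome genes gave few calls, against 12.3% of all genes rising and 19.4% falling. Of 62 cytosolic ribosomal protein genes 1 rose (rpl-11.1, 0.45) and 0 fell, with a median of 0.04, and the rpl-11.1 call ended without the mutant number 3 array at 20 µM (adjusted p 0.0515). Of 31 proteasome genes 0 passed in either direction (median -0.09). The respiratory chain gave 10 falls and 3 rises of 37, the rises being the cytochrome c gene cyc-2.2 (3.79 ± 0.48), nduf-2.2 (0.97) and ucr-2.3 (1.16). Heat-shock proteins gave 4 falls and 1 rise of 21, with hsp-17 at -1.08, and their share of falls was near that of all genes. C-type lectins gave 32 falls (14.5%) and 23 rises (10.5%) of 220, both shares below those over all genes, with clec-117 at 3.19 and clec-178 at -2.16.

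**Figure D3:**
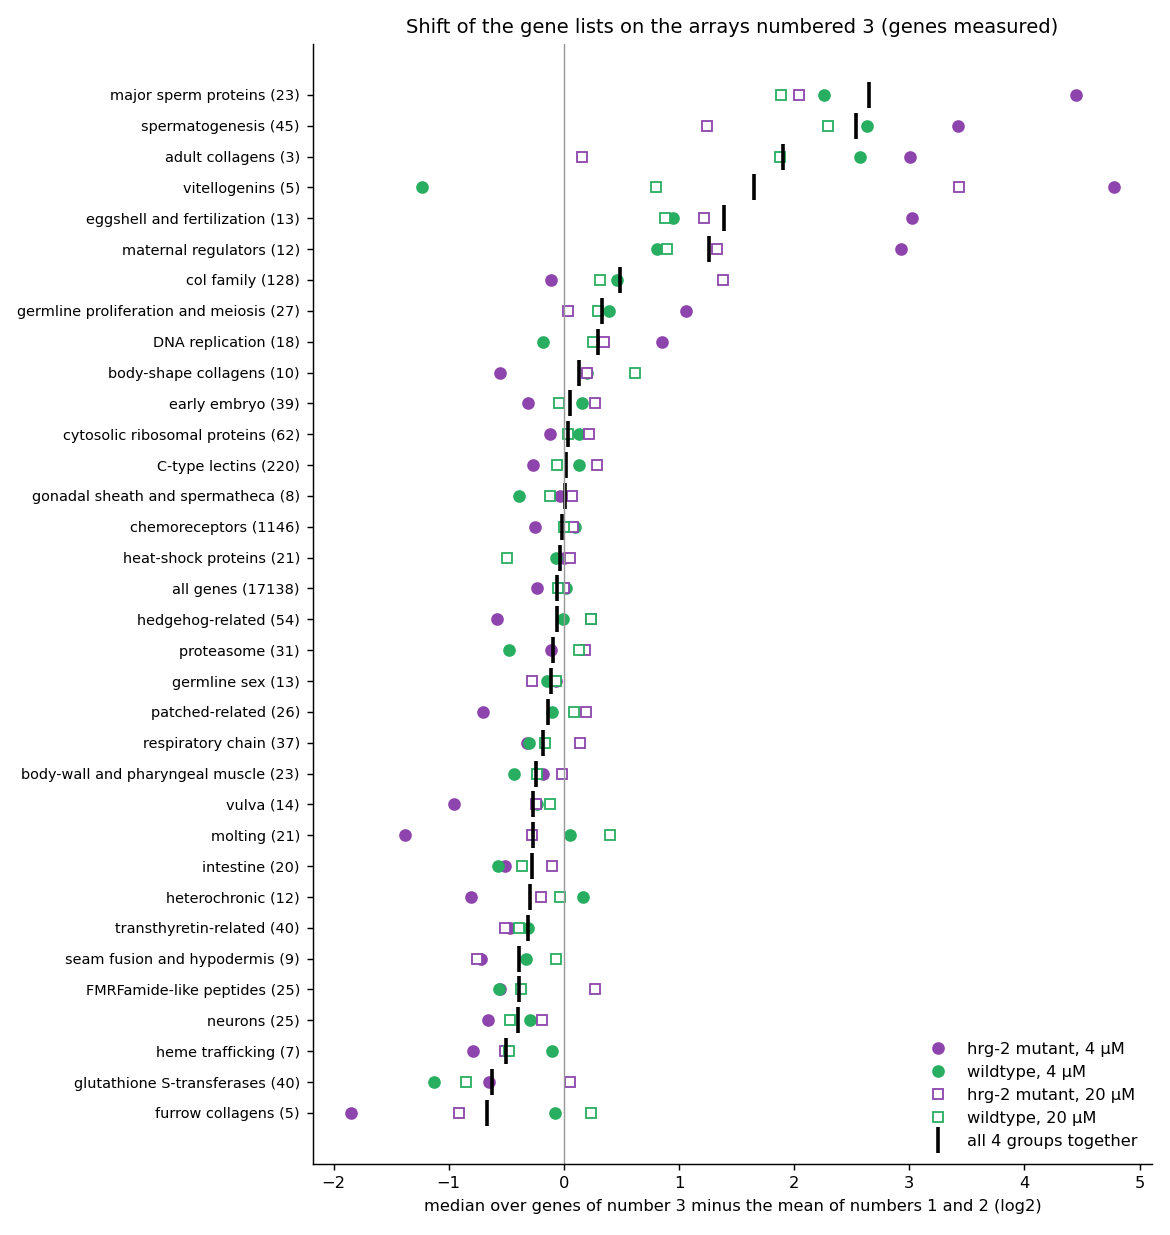
Median shift of each gene list (horizontal axis, log2, number 3 minus the mean of numbers 1 and 2) with the number of genes measured in brackets. Circles are 4 µM and squares 20 µM, purple the hrg-2 mutant and green wildtype, and the vertical tick is the median over the shift fitted to all groups. The MSP and spermatogenesis medians are above 1 in every group, while the vitellogenin median at 4 µM is 4.78 in the mutant and -1.23 in wildtype.

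Heme trafficking genes gave 3 falls (42.9%) and 0 rises of 7, against 19.4% of all genes falling and 12.3% rising. hrg-4, a heme importer of the intestine, read 7.69 on number 3 against 9.02 and 9.22 in the mutant at 4 µM, and 8.10 against 8.91 and 9.21 in wildtype. At 20 µM it read 2.80 against 4.23 and 4.40 in the mutant, and 3.79 against 5.00 and 4.67 in wildtype. Number 3 was the lowest array of each group, and the shift was -1.24 ± 0.14 (adjusted p 0.000135). hrg-1, a second heme importer, shifted at 4 µM by -1.02 in the mutant and -1.10 in wildtype, and at 20 µM by -1.29 in the mutant and -1.20 in wildtype. Its fitted shift was -1.15 ± 0.11 (6.44e-05). hrg-3, a secreted heme carrier, shifted by -0.53 (0.0378). That call ended when any array but number 2 of either mutant group or of wildtype at 20 µM was left out. Its adjusted p then rose to as much as 0.139. At 20 µM hrg-3 read between 2.38 and 3.25. Levels this low, like that of hrg-4 at 2.80, may lie at background. hrg-7 shifted by -0.35, hrg-10 by -0.22, the heme exporter mrp-5 by -0.50 and hrg-9 by 0.08, none of them called over all groups. The other mrp-5 probe set shifted by -0.99. Within the genotypes hrg-9 shifted by -0.68 in the mutant (adjusted p 0.0491) and by 0.85 in wildtype (0.0227), but its other probe set shifted by -0.54 over all groups. mrp-5 fell in the mutant (-0.90, 0.00605) and shifted by -0.10 in wildtype (0.789), and the difference between genotypes did not pass for either gene (0.0601 for hrg-9 and 0.175 for mrp-5). Among the number 3 arrays hrg-4 differed between 20 and 4 µM by -4.89 in the mutant and by -4.31 in wildtype.

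The largest individual rises and falls were ranked only among called genes whose number 3 array lay beyond both others in all 4 groups. That both genotypes share them was therefore a condition of the choice and is no result. F54F7.3 read 8.95, 8.65, 8.47 and 7.99 on number 3 and between 2.41 and 4.38 on the others, a shift of 5.02 ± 0.35 (adjusted p 2.18e-05). No call of signal over background was used, so levels this low may lie at background and no fold is given. Next came ttr-14 (5.01), F55B11.2 (4.90), Y45F10C.4 (4.90), W02D9.7 (4.61), ssp-10 (4.60), col-60 (4.53), sss-1 (4.52), C34D4.3 (4.50) and C35B1.4 (4.38). The largest falls were pud-3 (-4.13), pud-4 (-3.89), C29F3.3 (-3.56), col-41 (-3.42), grl-6 (-3.34), pana-1 (-3.22), T20D4.3 (-3.08), the receptor-type kinase kin-15 (-2.95), ZK228.4 (-2.93) and slc-36.5 (-2.84). pana-1 averaged 4.13 ± 0.19 on number 3 and 7.35 ± 0.69 on the 8 others. pud-3 and pud-4 are near copies of each other and are not 2 separate measurements. Each of these 20 genes kept its call when any 1 array was left out.

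The share of genes that rose varied between chromosomes, placed by the RefSeq annotation of the assembly WBcel235. Of 2352 genes measured on chromosome X, 93 rose (3.95%) and 762 fell (32.4%), with a median shift of -0.29. On chromosome I 430 of 2475 rose (17.4%) and 357 fell (14.4%), and on chromosome IV 476 of 2669 rose (17.8%) and 495 fell (18.5%). Chromosome V, with 4323 genes, gave 7.77% rises and 19.2% falls. Chromosomes II and III lay between, with 14.8% and 14.3% rises. Neighbouring genes are not independent, and no test was made of these shares.

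**Figure D4:**
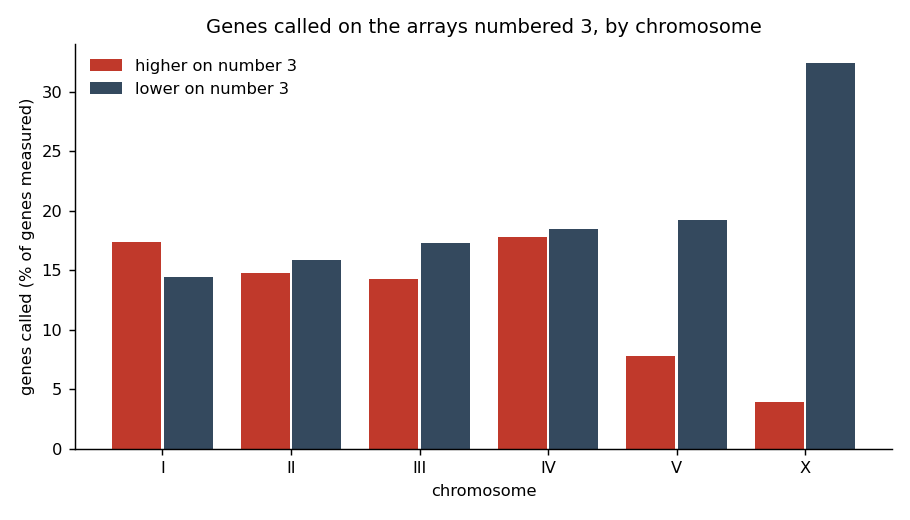
Share of the genes measured on each chromosome (bars, percent) that were called higher or lower on the arrays numbered 3. Chromosome X has 3.95% higher and 32.4% lower, against 12.3% and 19.4% over all genes.

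The shift was then compared between genotypes. In the mutant 1750 genes rose (10.2%) and 2811 fell (16.4%), and in wildtype 1632 rose (9.52%) and 2037 fell (11.9%). Of these, 1160 genes rose in both, or 66.3% of those rising in the mutant and 71.1% of those rising in wildtype. Falls in both numbered 1158, or 41.2% of the mutant falls and 56.8% of the wildtype falls, and 26 genes were called in opposite directions. In wildtype the 4682 probe sets called became 837 without its number 3 array at 4 µM, 2809 without number 3 at 20 µM and 3097 without number 2 at 4 µM. The SD of the shift over probe sets at 4 µM was 1.35 in the mutant and 1.03 in wildtype, and at 20 µM it was 0.91 in the mutant and 0.89 in wildtype. Between numbers 2 and 1 it was 0.38 to 0.45 in the same groups. An exact permutation test of the 2 mutant against the 2 wildtype values gave a two-sided p of 0.667 (difference 0.17), in a design whose smallest possible p is 0.333.

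The difference of the shifts (mutant minus wildtype) passed at 176 probe sets by limma, 95 positive and 81 negative, or 129 positive and 67 negative when each array was centred on its median. It passed at 12 with array weights and at 0 without moderation of the variance or with number 3 set against number 1 or number 2 alone (3157, 1453 and 1712 at an unadjusted p under 0.05). By gene 74 were positive (0.432%) and 70 negative (0.408%). The count rested on single arrays, being 10 without the wildtype number 3 array at 4 µM and 1808 without the mutant number 3 array at 20 µM. It was 382 without the mutant number 3 array at 4 µM, and from 64 to 114 without the wildtype number 2 array at 20 µM, without number 1 or 2 at 4 µM in either genotype, or without the mutant number 1 array at 20 µM. Of the gene lists, the col family held 14 positive calls and 0 negative of 128, and vitellogenins 2 positive and 0 negative of 5. Eggshell and maternal genes held 1 positive call each. Values of the difference were above 0, whether called or not, for 12 of the 13 eggshell and 12 of the 12 maternal genes, as for 23 of 23 MSP genes, 18 of 20 intestinal genes and 33 of 40 glutathione S-transferases. Over all genes they were above 0 for 7518 of 17138.

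**Figure D5:**
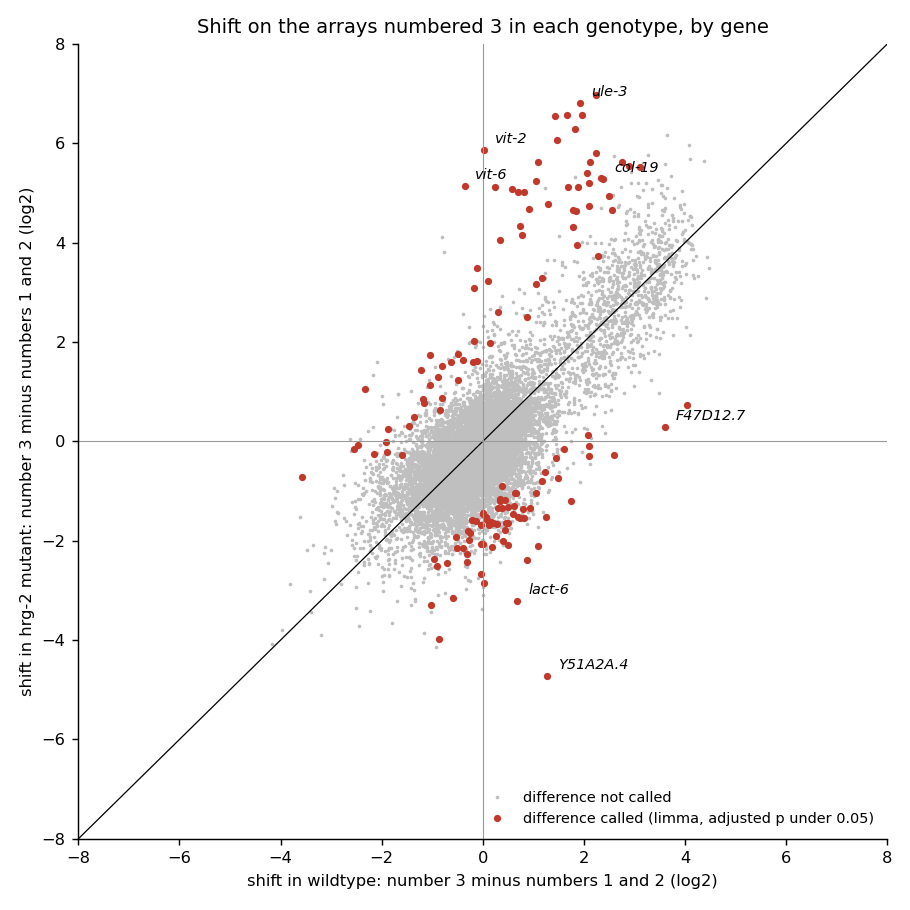
Shift of each gene in the hrg-2 mutant (vertical axis, log2) against its shift in wildtype (horizontal axis, log2), with the line of equality. Red points are the 144 genes whose difference of shifts passed limma's adjusted p under 0.05; vit-2 lies at 5.87 in the mutant and 0.02 in wildtype.

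Of 5 yolk genes 2, vit-2 and vit-6, differed in shift between the genotypes. vit-2 read 12.51 and 11.11 on the mutant arrays numbered 3, against 6.23, 5.27, 6.95 and 5.32 on the mutant arrays numbered 1 and 2. In wildtype it read 9.42 and 10.48 on number 3, against 10.27, 9.28, 10.36 and 9.78. The mutant arrays thus lay apart by number, and the wildtype arrays overlapped. Its shift was 5.87 ± 0.55 in the mutant and 0.02 ± 0.55 in wildtype, a difference of 5.84 ± 0.77 (adjusted p 0.0100). The call ended without the wildtype number 3 array at 4 µM (adjusted p 0.144). vit-6 gave a difference of 5.49 ± 0.88 (0.0247), with a mutant shift of 5.14 and a wildtype shift of -0.36, and its call ended when number 3, 1 or 2 of wildtype at 4 µM or number 1 or 2 of the mutant at 4 µM was left out (adjusted p up to 0.202). vit-1, vit-4 and vit-5 differed by 2.51, 4.92 and 4.57 without passing, and vit-4 and vit-5 are near copies. Over all groups vit-2 was called (2.95, adjusted p 0.0401), and that call ended when any of the 6 mutant arrays or either wildtype array numbered 2 was left out (adjusted p up to 0.163).

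col-19 rose in both genotypes and by more in the mutant, with shifts of 5.28 ± 0.23 (adjusted p 1.85e-06) and 2.38 ± 0.23 (0.000454) and a difference of 2.91 ± 0.33 (0.00624). Without the wildtype number 3 array at 4 µM the difference no longer passed (0.0724). ule-3, named for its expression in the uterine lumen, read 10.42 and 9.81 on the mutant arrays numbered 3, against 3.60, 3.10, 3.24 and 3.29. In wildtype it read 7.71 and 8.16 on number 3, against 6.55, 5.56, 5.82 and 6.09. Number 3 was the highest array of every group, and the difference of shifts was 4.88 ± 0.41 (0.00189). This holds for the brighter of its probe sets, while the other shifted over all groups by 0.31 against 4.37. stha-3 (5.12), ZK813.1 (4.90), C10G8.4 (4.87), W02D9.7 (4.72) and K07A1.6 (4.62) completed the largest positive differences. Those of ule-3 and W02D9.7 passed with any 1 array left out, while the remaining 4 ended without the wildtype number 3 array at 4 µM (adjusted p 0.0764 to 0.109).

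The largest negative difference was that of Y51A2A.4. It read 3.29 and 3.61 on the mutant arrays numbered 3, against 8.59, 8.40, 8.27 and 7.44 on the mutant arrays numbered 1 and 2. In wildtype it read 5.72 and 3.54 on number 3, against 3.79, 2.98, 3.33 and 3.32. The mutant arrays numbered 1 and 2 were thus the 4 highest of the 12. The difference of shifts was -6.0 ± 0.65 (adjusted p 0.00489) and passed with any 1 array left out, up to 0.0401. lact-6, a beta-lactamase-domain protein, differed by -3.89, the lipid-binding protein far-3 by -3.19, the lectin clec-247 by -3.25, the nuclear receptor nhr-155 by -3.11 and F11G11.13 by -2.95. These 5 lost their calls without the wildtype number 3 array at 4 µM and at least 1 further array, with adjusted p up to 0.286. F47D12.7 and Y105C5B.7 took another form, with mutant shifts of 0.29 and 0.73, which did not pass, and wildtype shifts of 3.60 and 4.03, which did. F47D12.7 read 7.23 and 7.09 on the wildtype arrays numbered 3 and between 2.53 and 4.10 on all 10 other arrays. Both calls ended without the wildtype number 3 array at 4 µM (adjusted p 0.116 and 0.0840).

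The genotype difference was also set out by array number, without a test. On numbers 1 and 2 the mutant and wildtype arrays lay apart, with a mean difference of at least 2-fold, at 589 of 22548 probe sets. On number 3 the difference had the same sign at both heme levels for 118 of these, the opposite sign at both for 237 and mixed signs for 234, and for 2 it had the same sign and was at least 2-fold at both. The 589 probe sets were chosen for their gap on numbers 1 and 2, so a smaller difference on number 3 is in part set by that choice. The split of signs over all probe sets was not counted, so these counts have no background and do not show a reversal on number 3. Across probe sets the genotype difference on number 3 correlated with that on numbers 1 and 2 at r = -0.188 at 4 µM and -0.07 at 20 µM. Between heme levels the genotype differences correlated at 0.248 on number 3 and at 0.344 on numbers 1 and 2. These coefficients are over probe sets, which are not independent, and carry no test.

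No gene passed the test of a difference in shift between heme levels. limma called 0 of 17138 genes for the shift at 20 µM minus that at 4 µM (0.0%), with 3295 probe sets at an unadjusted p under 0.05 and a smallest adjusted p of 0.0744. Without the wildtype number 3 array at 4 µM 1230 probe sets passed, without the wildtype number 2 array at 20 µM 62, without the wildtype number 3 array at 20 µM 6, without the wildtype number 1 array at 4 µM 1, and without any of the other arrays 0. Genes with the smallest unadjusted p that separated the heme levels were nas-15, idpp-3 and phg-1, which were higher, and hsp-12.3, F17H10.1 and Y43C5A.3, which were lower, in shift at 20 µM. The small heat-shock gene hsp-12.3 read 10.40 and 10.39 on number 3 at 20 µM, against 11.22, 11.04, 10.95 and 11.12 on numbers 1 and 2. At 4 µM it read 11.24 and 10.82 on number 3, against 7.64, 7.73, 8.94 and 9.15. None of the 6 passed.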

How the data were processed

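RNA of 12 samples was hybridised to 12 one-colour arrays. The deposited table holds log2 values, made by the authors with RMA. The submitters' processing notes name Partek 6.5, without settings. Of 22625 probe sets 77 controls were left out of the tests. Names came from the platform annotation and the RefSeq annotation of WBcel235, and 20810 probe sets had 1 symbol, 843 several and 895 none. Genes were named only from the first kind.

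limma 3.58.1 in R 4.3.3 (lmFit, eBayes, two-sided, Benjamini-Hochberg over all 22548 probe sets, threshold 0.05) was run with group as a factor and a shift of number 3, with 7 residual degrees of freedom, or a shift per genotype or per heme level, with 6. The test was checked on simulated data. The number of arrays limits the precision. A gene stands for its probe set of highest mean.

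The named genes were all adult collagen, heterochronic, vitellogenin and heme trafficking genes, the 10 largest rises and falls seen in all groups, the 8 largest differences between genotypes each way, 3 each way between heme levels, and 3 of smallest p per list, at most 2 per name stem in the ranked sets. Not all are given in the text. The arrays and the 33 gene lists were chosen with earlier results of these data known. Alternatives covered scaling, dim probe sets, moderation, array weights, a single comparison number, the replicate block and each array left out.

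The titles number the arrays, and number is the variable studied. Over the 6 pairs of groups, number 2 minus number 1 correlated across probe sets at r from 0.003 to 0.452. Pairs with the mutant at 4 µM gave 0.003, 0.065 and 0.077, and pairs among the other groups 0.38, 0.393 and 0.452. Numbers 1 and 2 thus carried a partly shared difference outside the mutant at 4 µM. Whether the numbers pair the arrays was not tested.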

Additional observations from a re-analysis of the deposited data

Results flagged for a closer look

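The shift of number 3 differed between mutant and wildtype, by limma's test of the difference itself, for 18 of the named genes. It was larger in the mutant for vit-2 (5.84), vit-6 (5.49), stha-3 (5.12), ZK813.1 (4.90), ule-3 (4.88), C10G8.4 (4.87), W02D9.7 (4.72), K07A1.6 (4.62) and col-19 (2.91). It was lower in the mutant for Y51A2A.4 (-6.0), lact-6 (-3.89), F47D12.7 (-3.30), Y105C5B.7 (-3.30), clec-247 (-3.25), far-3 (-3.19), nhr-155 (-3.11), F11G11.13 (-2.95) and the molting kinase nekl-3 (-1.50). nekl-3 read 5.19 and 5.87 on the mutant arrays numbered 3, against 7.03, 7.18, 7.67 and 7.45 on numbers 1 and 2, while in wildtype it read 6.78 and 7.01, against 6.98, 7.22, 7.27 and 7.29. Its difference lost its call when any array but the mutant arrays numbered 3, number 2 of the mutant at 20 µM or number 1 of wildtype at 20 µM was left out (adjusted p up to 0.164). Only ule-3, W02D9.7 and Y51A2A.4 of the 18 passed with any 1 array left out. The causes were not tested.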

How the results depend on the processing

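The shift was called at 5706 to 6518 probe sets with 1 array left out, at 6630 after centring, at 6563 with the replicate block and at 3330 with a fold of at least 2. Against number 2 alone it was called at 3962 and against number 1 alone at 2455. In the mutant the counts were 1678 with array weights, 2438 against number 2 and 544 against number 1. In wildtype they were 2842 without moderation, 2308 against number 2, 0 against number 1 (3938 at an unadjusted p under 0.05), and 837 to 6068 with 1 array left out, the lowest without its number 3 array at 4 µM. The difference between genotypes was called at 0 probe sets without moderation (3157 at an unadjusted p under 0.05), 12 with array weights, 0 against either number alone (1712 and 1453), 209 with the replicate block and 10 to 1808 with 1 array left out. That between heme levels was called at 6 with an intensity trend and robust prior, and 0 to 1230 with 1 array left out. The replicate block changed no call of a named gene. Leaving out an array ended 41 and added 30 of 1812 calls of the named shifts, and reversed 0. With the mean of all probe sets of a gene, 31 of 33 list medians stayed within their spread between groups, while the germline sex median was -0.24 and that of the somatic gonad list -0.20, and the molting (-0.46) and heterochronic (-0.15) medians moved by over 1.5 times. The causes were not tested. Signal over background was not used here, so dim probe sets have no separate limit.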

Other observations

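Gene families were also counted by name stem wherever at least 15 members were measured (113 families). After the msp and spe genes, the share of rises was highest for histones, of which 16 of 26 rose and 0 fell (median 0.85), and for the neprilysin-like peptidases (nep), of which 12 of 25 rose and 4 fell. These rises are 61.5% of the histones and 48.0% of the nep genes, against 12.3% of all genes. The median histone shift was 0.95 in the mutant and 0.72 in wildtype. Histone genes are near-identical copies, so their probe sets share signal.

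Among the families with the largest shares of falls were FMRFamide peptide receptors (frpr, 10 of 17), vacuolar ATPase subunits (vha, 10 of 18), UDP-glucuronosyltransferases (ugt, 35 of 64), dehydrogenases of the dhs family (16 of 30) and globins (glb, 16 of 30). In that order the shares were 58.8%, 55.6%, 54.7%, 53.3% and 53.3%, against 19.4% of all genes falling. The medians were -0.64, -0.60, -0.67, -0.54 and -0.51, against -0.06 over all genes. The vha median was -0.33 in the mutant and -0.86 in wildtype. These families were ranked after their values were seen and carry no test.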
